A study of Mus musculus with 10 samples.

Results

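The genes described here encode membrane carriers that move sugars, amino acids, small peptides and monocarboxylates, in cells sorted from the intestine of mouse embryos with and without p57Kip2. They were taken as the listed genes of 11 solute carrier families by name (Slc1a, Slc2a, Slc3a, Slc5a, Slc6a, Slc7a, Slc15a, Slc16a, Slc36a, Slc38a and Slc43a). This gave 92 of the 20579 genes in the table, of which 89 are carrier genes and 3 are rows that share only the name, namely opposite-strand transcripts and a pseudogene. RNA was sequenced from 5 p57KO and 5 p57WT libraries, all from intestines at E18.5, late in gestation, on a C57BL6/J and 129S4 background. p57KO embryos lack p57Kip2, the cell cycle inhibitor encoded by Cdkn1c, and p57WT embryos carry it. Every embryo of both groups also carried green fluorescent protein under the Hopx promoter, by which the cells were sorted, and Hopx is a gene of slow-cycling crypt cells. The part of Cdkn1c removed in p57KO, and whether any embryos were pooled, are not given in the sources used here.

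Absorptive cells of the small intestine take up nutrients at the brush border, which faces the gut lumen, and release them to the blood at the basolateral side. At the brush border, glucose enters with sodium through Slc5a1, fructose through Slc2a5, small peptides with protons through Slc15a1, and cystine and cationic amino acids through a pair of subunits, Slc3a1 and Slc7a9. At the basolateral side, Slc2a2 passes sugars, and Slc3a2 joins a light subunit such as Slc7a7 or Slc7a8 to pass amino acids. Other members serve growth and housekeeping in most cells, among them Slc2a1 for glucose and Slc7a5 and Slc38a2 for amino acids, and some clear neurotransmitters or carry osmolytes.

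Total counts ranged from 8037887 to 26809231 per library, and 3 counts corresponded to between 0.105 and 0.392 CPM (the count scaled for sequencing depth and library composition). Cdkn1c was at 0.840 ± 0.764 CPM across p57KO and 230 ± 129 CPM in p57WT (SD, n = 5 each; log2 fold change -8.21, edgeR adjusted p = 9.99e-05), as the labels imply. The sample label calls the cells intestinal stem cells, but markers of other cells were present in both genotypes. Summed smooth muscle markers were at 5747 to 38881 CPM in p57KO and 57952 to 118828 CPM in p57WT, and 12 of 12 were lower in p57KO. Summed epithelial markers were at 9253 to 17986 CPM in p57KO and 3149 to 7638 CPM in p57WT, with 15 of 19 higher and 0 lower in p57KO. Myeloid markers summed to 1129, 8496, 1039, 609 and 207 CPM in p57KO 1 to 5 and to between 28.6 and 150 CPM in p57WT, with 8 of 8 tested markers higher in p57KO. Fibroblast markers summed to between 149 and 1345 CPM in p57KO and 2642 and 9165 CPM in p57WT, with 6 of 7 lower. Erythroid markers summed to between 103 and 1308 CPM in p57KO and 2.09 and 87.8 CPM in p57WT, with 7 of 7 higher. No marker of these 5 lists that the table holds was at 0 across all libraries of a genotype. Their part in the carrier results was not tested. In bulk libraries such as these, fewer cells of a type and less RNA per cell cannot be told apart. Each library also bears a label number. Number 607 covers p57KO 1, p57KO 2 and p57WT 1, number 608 the other p57KO libraries and number 740 the other p57WT libraries, so that 607 alone holds both genotypes.

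The promoters of 3 carriers are shown because their genes moved in different ways: Slc5a1 was among the most abundant carriers per length in p57KO, Slc3a1 had the largest increase among the tested brush border carriers, and Slc7a11 was high in single p57KO libraries. Each window is from RefSeq on GRCm38.p6, runs 5′ to 3′ on the strand of the gene, and covers 250 bases before and 50 after an annotated start. Capitals mark letters that match, on either strand, the HNF1 core GTTAAT, the HNF4 site CAAAGTCCA, the GC box GGGCGG, the TATA box TATAAA, the E-box CACGTG, the amino acid response element TGATGNAAN or the antioxidant response element TGACNNNGC.
Slc5a1, chr5:33103969-33104268, plus strand: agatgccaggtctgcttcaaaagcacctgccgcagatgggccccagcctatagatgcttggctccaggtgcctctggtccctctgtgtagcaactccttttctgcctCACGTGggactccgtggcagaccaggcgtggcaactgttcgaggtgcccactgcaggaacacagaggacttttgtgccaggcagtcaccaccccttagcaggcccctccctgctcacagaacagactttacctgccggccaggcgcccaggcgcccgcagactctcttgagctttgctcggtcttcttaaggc
Slc3a1, chr17:85028097-85028396, plus strand: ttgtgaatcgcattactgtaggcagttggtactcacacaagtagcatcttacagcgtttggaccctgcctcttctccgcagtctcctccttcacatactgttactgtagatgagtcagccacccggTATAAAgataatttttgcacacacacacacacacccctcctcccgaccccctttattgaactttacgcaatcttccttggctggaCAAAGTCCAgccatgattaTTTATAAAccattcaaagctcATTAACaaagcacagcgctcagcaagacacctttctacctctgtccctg
Slc7a11, chr3:50443564-50443863, minus strand: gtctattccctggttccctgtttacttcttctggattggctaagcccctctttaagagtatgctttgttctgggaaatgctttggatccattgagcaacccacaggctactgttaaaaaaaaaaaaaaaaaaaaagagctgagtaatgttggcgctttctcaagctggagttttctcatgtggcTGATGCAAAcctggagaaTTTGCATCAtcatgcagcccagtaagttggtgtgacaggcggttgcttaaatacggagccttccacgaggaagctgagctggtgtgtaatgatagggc
In the Slc3a1 window the HNF4 letters begin at -39 from the start and the HNF1 letters at 2, with TATA box letters at -124, -20 and -18, of which the last pair overlap. The Slc7a11 window held the amino acid response element letters in both orientations, at -66 and -48. In the Slc5a1 window the only match was the E-box at -143. A match describes letters only. Windows of the table held the HNF4 letters in 0.475%, the HNF1 core in 7.10%, the amino acid response element in 3.95% and the E-box in 7.15% of cases (32851 windows). Windows were found for 66 of the 89 carriers. The HNF1 core was present for 4 of 23 carriers with a window that were higher in p57KO, for 0 of 5 that were lower and for 1 of 23 that were not called. For the GC box these counts were 13, 5 and 15, for the TATA box 2, 2 and 3, and for the E-box 3, 0 and 4. The antioxidant response element gave 1, 1 and 6, and the amino acid response element 2, 0 and 1. The HNF4 letters gave 1, 0 and 0. A carrier counted if any of its windows matched, so these counts do not compare with the shares of windows.

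Most tested brush border carriers and 4 of 9 basolateral carriers were more abundant in p57KO, whereas growth and housekeeping carriers moved in both directions. Both genotypes were compared with edgeR over the whole table, and calls were made where the p, adjusted by Benjamini-Hochberg, was below 0.05. Of the 92 members, 72 had enough counts in enough libraries to be tested and 20 did not. Of the 72, 27 were higher in p57KO (37.5%), 11 were lower (15.3%) and 34 were not called. Over all 16710 genes tested, 36.5% were called, 19.3% higher and 17.2% lower. The share of members called higher was thus above that of all genes and the share called lower was near it. The median log2 fold change was 0.19 for the members tested and 0.08 for all genes. Libraries did not overlap between genotypes for 20 members higher in p57KO and 6 lower, which occurred in 11.5% and 12.7% of all genes tested. The authors' deposited table called 33 members higher and 19 lower, and 38 members had the same call and sign there and in the edgeR fit.

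Several of these counts rested on the scaling and on the few libraries within a label number. With libraries scaled to 19 epithelial markers, the median of all genes moved to -1.31, and 6 members were higher and 39 lower (437 and 10634 of all genes). Within label number 607, which sets 2 p57KO libraries against 1 p57WT library, 1 member was higher and 4 were lower (183 and 826 of all genes). With a term for the class of ribosomal RNA share, which was low in p57KO 1 to 4 and p57WT 2 and high in the rest, 15 members were higher and 6 lower (1207 and 1752 of all genes).

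**Figure D1:**
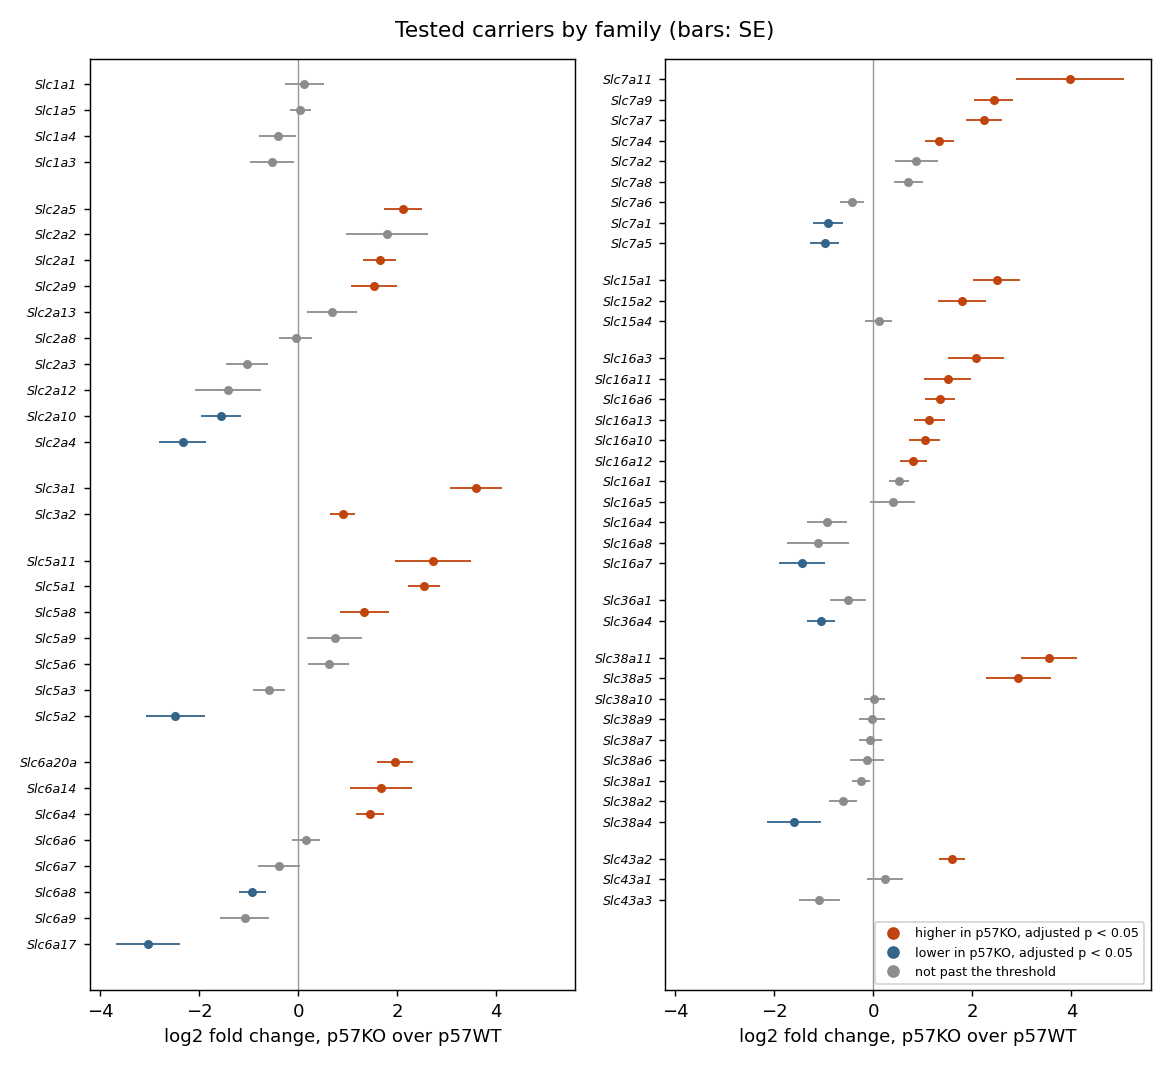
Log2 fold change of p57KO over p57WT (horizontal axis) with its SE for 68 of the 69 carrier genes tested, by family, coloured by the edgeR call. Within the Slc1a, Slc2a, Slc5a, Slc6a, Slc7a, Slc16a, Slc38a and Slc43a families members lie on both sides of 0, and both Slc3a genes lie above it.

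The families were seldom uniform. Their counts stand beside 19.3% higher and 17.2% lower over all genes tested, and most families hold too few genes to be set apart from these shares. Both Slc3a genes and 2 of 3 tested Slc15a genes were higher, and 6 of 12 Slc16a genes were higher and 2 lower. In the Slc2a family 3 of 10 were higher and 2 lower, in Slc5a 3 of 7 and 1, in Slc6a 3 of 8 carriers and 2, in Slc7a 4 of 9 and 2, and in Slc38a 2 of 9 and 1. Of 3 Slc43a genes 1 was higher, and of 2 Slc36a genes 1 was lower. None of the 4 tested Slc1a genes, which carry glutamate or small neutral amino acids, passed in edgeR. Their log2 fold changes lay between -0.53 and 0.13.

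Of the 3 rows without a carrier, the opposite-strand transcript of an Slc6a gene was called higher, and the opposite-strand transcript of Slc7a6 and the pseudogene Slc2a4rg-ps were not called (log2 fold changes of 0.01 and -0.76).

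Brush border carriers had the highest median increase among the lists of carriers by role. Of 19 on the list, 18 were in the table and 14 were tested. Of these, 9 were higher in p57KO (64.3%) and 0 lower, beside 19.3% and 17.2% of all genes, with a median log2 fold change of 1.82. Scaled to epithelial markers, 4 were higher and 3 lower with a median of 0.50, where all genes were at -1.31. Within 607 the median was 1.34 and 0 were called in edgeR (all genes 0.15).

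Slc5a1, the sodium-glucose cotransporter (chromosome 5, 33104219 to 33162870, plus strand), was at 239, 365, 321, 269 and 163 CPM in p57KO 1 to 5, and at 72.3, 39.5, 54.2, 42.0 and 25.3 CPM in p57WT 1 to 5. Every p57KO library was above every p57WT library. The means were 271 ± 77.7 CPM across p57KO and 46.7 ± 17.6 CPM in p57WT (SD, n = 5 each), 5.82-fold higher in p57KO (log2 fold change 2.54, SE of 0.32, edgeR adjusted p = 0.000286). Scaled to epithelial markers Slc5a1 was still called higher (1.24, adjusted p = 0.00177). Within 607 the value was 2.06 and missed the threshold (edgeR adjusted p = 0.0574).

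Slc3a1 and Slc7a9 encode the heavy and light subunits of the cystine and cationic amino acid carrier. Slc3a1 (chromosome 17, 85028376 to 85064236, plus strand) was at 17.3, 48.0, 135, 122 and 39.6 CPM in p57KO 1 to 5, and at 9.22, 5.14, 7.14, 4.84 and 3.56 CPM in p57WT 1 to 5. The groups did not overlap, but the p57KO libraries differed among themselves, with p57KO 3 and p57KO 4 highest and p57KO 1 lowest. The log2 fold change was 3.60 (SE of 0.53, edgeR adjusted p = 0.000576), and 2.38 when scaled to epithelial markers (adjusted p = 0.00118). Within 607 it was 1.83 and missed the threshold (edgeR adjusted p = 0.205). Of its 2271 exonic bases, 601 overlap exons of the opposite-strand gene Prepl, whose reads cannot be told apart without a strand setting.

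Slc7a9 was at 75.5, 209, 226, 248 and 125 CPM in p57KO 1 to 5, and at 36.4, 23.8, 49.1, 41.6 and 13.2 CPM in p57WT 1 to 5. Again the groups did not overlap (log2 fold change 2.43, SE of 0.40, edgeR adjusted p = 0.00101, and 1.97 within 607 with adjusted p = 0.187). Per kilobase of exon, Slc7a9 was above Slc3a1 in every library, by a ratio of 1.42 to 3.71 in p57KO and of 3.14 to 7.29 in p57WT. The ratio was below every p57WT library in p57KO 3 to 5, and within the p57WT range in p57KO 1 and p57KO 2.

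Slc15a1, the peptide carrier of the brush border (chromosome 14, 121459621 to 121505252, minus strand), was low in both groups. It was at 8.51, 7.41, 11.4, 7.40 and 20 CPM in p57KO 1 to 5, and at 2.16, 0.751, 3.15, 2.62 and 1.19 CPM in p57WT 1 to 5. All p57KO values were above all p57WT values (log2 fold change 2.49, SE of 0.47, edgeR adjusted p = 0.00198). It was called with the ribosomal RNA class as a term (3.32) and with epithelial scaling (1.26, adjusted p = 0.0449). Within 607 the value was 1.88 and missed the threshold (edgeR adjusted p = 0.268).

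Slc2a5, the fructose carrier, averaged 12 ± 4.55 CPM across p57KO and 2.72 ± 1.15 CPM in p57WT (SD, n = 5 each; log2 fold change 2.12, SE of 0.39, edgeR adjusted p = 0.00184). Slc6a20a, a proline carrier, averaged 30.4 ± 10.1 CPM across p57KO and 7.81 ± 3.15 CPM across p57WT (log2 fold change 1.96, edgeR adjusted p = 0.00196). Neither overlapped between genotypes. The near copy Slc6a20b was too low to be tested, with 34 counts in p57KO and 58 in p57WT, and reads shared by the copies could have been split or lost.

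The remaining increases at the brush border were less stable. Slc5a8, a sodium-coupled monocarboxylate carrier, had a log2 fold change of 1.34 (edgeR adjusted p = 0.0450), and Slc6a14, a broad amino acid carrier, one of 1.68 (edgeR adjusted p = 0.0479). Both lost the call without any 1 of p57KO 3, p57KO 4, p57KO 5, p57WT 1, p57WT 2, p57WT 4 or p57WT 5, with edgeR adjusted p of 0.0600 to 0.121 for Slc5a8 and of 0.0588 to 0.111 for Slc6a14. Slc6a14 was at 16.5 CPM in p57WT 3 and at no more than 4.62 CPM in the other p57WT libraries, and without p57WT 3 its log2 fold change was 2.54. Slc5a11, a sodium-inositol cotransporter, was at 1.29 and 3.39 CPM in p57KO 1 and p57KO 2, at 40.1, 39.3 and 25.6 CPM in p57KO 3 to 5, and at 1.44 to 4.44 CPM in p57WT. Its increase (log2 fold change 2.72, SE of 0.77, edgeR adjusted p = 0.0149) thus lay in the 3 libraries numbered 608, and within 607 its value was -0.89.

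The other 5 tested carriers of the list did not pass. Slc1a5, a glutamine carrier, was at 52.0, 50.3, 43, 28.7 and 46.0 CPM in p57KO 1 to 5 and at 50.3, 39.6, 33.6, 38.9 and 50.6 CPM in p57WT 1 to 5 (log2 fold change 0.05, edgeR adjusted p = 0.889). The groups overlapped almost fully. Slc36a1, a proton-coupled carrier of small amino acids, and Slc5a6, a vitamin carrier, had log2 fold changes of -0.51 and 0.62 (edgeR adjusted p = 0.288 and 0.262). Slc1a1, a glutamate carrier, and Slc5a9, a sugar carrier, were at 0.13 and 0.74. Of the 4 not tested, Slc2a7 had 88 counts in p57KO and 4 in p57WT, and Slc5a4b had 262 in p57KO and 18 in p57WT.

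**Figure D2:**
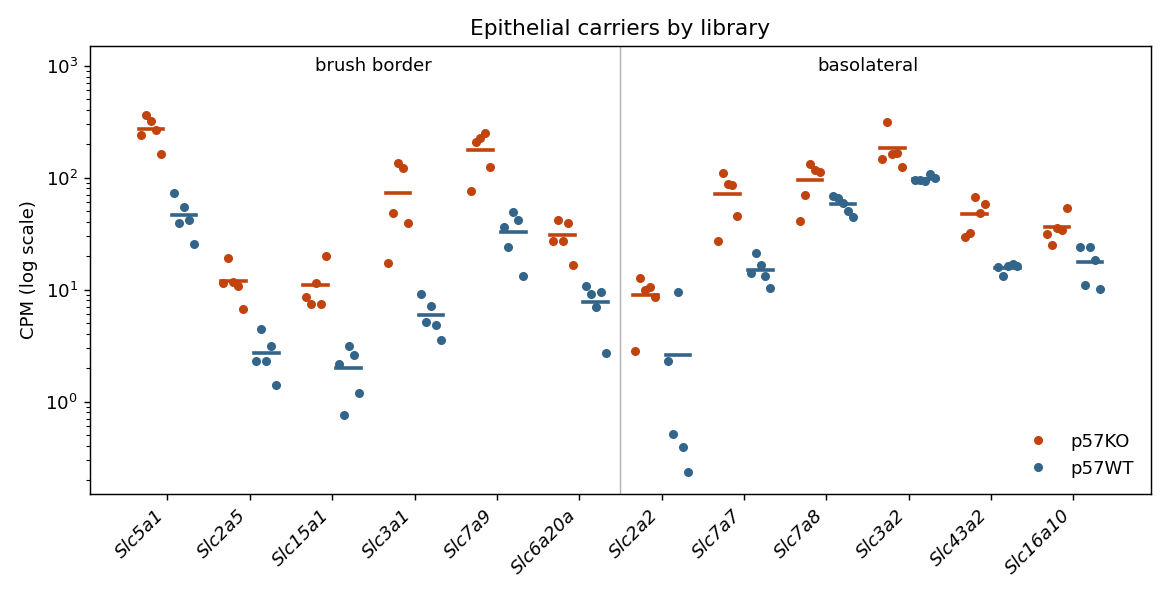
CPM on a log axis in each library for 6 brush border and 6 basolateral carriers. Points are libraries (p57KO left and p57WT right of each tick) and lines are means of 5. All p57KO points of Slc5a1 and the 5 brush border genes beside it lie above the p57WT points, while Slc2a2 and Slc7a8 overlap. Of the 14 tested brush border carriers, the 6 drawn are the only ones whose libraries did not overlap between genotypes.

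Among 9 basolateral carriers, all tested, 4 were higher in p57KO (44.4%) and 0 lower, beside 19.3% and 17.2% of all genes. Their median log2 fold change was 0.90. With epithelial scaling 0 were higher and 3 lower (median -0.55). All genes were then at a median of -1.31, with 10634 of 16710 lower. Within 607 the median of the basolateral carriers was 0.34, and with the ribosomal RNA class as a term 3 were higher. Slc7a7, the light subunit that exports cationic amino acids, was at 27.3, 109, 88.5, 85.1 and 45.1 CPM in p57KO 1 to 5 and at 14.0, 21.3, 16.6, 13.1 and 10.4 CPM in p57WT 1 to 5. The groups did not overlap (log2 fold change 2.23, SE of 0.36, edgeR adjusted p = 0.000946).

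Slc43a2, a carrier of large neutral amino acids, was at 29.5, 31.8, 67.7, 48.3 and 58.0 CPM in p57KO 1 to 5 and at 15.8, 13.1, 16.1, 17.0 and 16.4 CPM in p57WT 1 to 5. The p57WT libraries lay close together and below all p57KO libraries (log2 fold change 1.59, SE of 0.26, edgeR adjusted p = 0.00105). Within 607 it was 0.95 and missed the threshold (edgeR adjusted p = 0.204). Slc16a10, the carrier of aromatic amino acids, averaged 36 ± 10.8 CPM across p57KO and 17.6 ± 6.73 CPM across p57WT (log2 fold change 1.04, edgeR adjusted p = 0.0197) and was at -0.19 with epithelial scaling and at 0.22 within 607.

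Slc3a2, the heavy subunit shared by many amino acid exchangers, was at 147, 314, 161, 165 and 125 CPM in p57KO 1 to 5 and at 96.1, 95.5, 92.7, 107 and 98.9 CPM in p57WT 1 to 5. The lowest p57KO library was above the highest p57WT library (log2 fold change 0.90, SE of 0.26, edgeR adjusted p = 0.0160). With epithelial scaling the value turned to -0.55 and did not pass (adjusted p = 0.134). Slc7a8, a light subunit, was at 40.7, 70.1, 132, 116 and 113 CPM in p57KO 1 to 5 and at 44.2 to 68.2 CPM in p57WT (log2 fold change 0.71, edgeR adjusted p = 0.0753). Without p57KO 1 it passed (0.91, edgeR adjusted p = 0.00872), and within 607 it was -0.30.

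Slc2a2, the exit carrier for glucose and fructose, was at 2.84, 12.6, 9.88, 10.5 and 8.53 CPM in p57KO 1 to 5 and at 2.28, 0.514, 9.56, 0.392 and 0.237 CPM in p57WT 1 to 5. The groups overlapped, with p57WT 3 inside the p57KO range, and it did not pass (log2 fold change 1.79, edgeR adjusted p = 0.106). Without p57WT 3 it was called higher (3.39, edgeR adjusted p = 0.00561), as it was with limma voom (3.10, adjusted p = 0.00697) and with the replicate block (2.81, edgeR adjusted p = 0.0396). Slc43a3, a purine base carrier, had a log2 fold change of -1.09 (edgeR adjusted p = 0.0510), and was called lower without p57KO 2 or without p57WT 1 (edgeR adjusted p = 0.0344 and 0.0376).

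Growth and housekeeping carriers moved in both directions. Of 21, 20 were tested, 5 were higher (25%) and 6 lower (30%), beside 19.3% and 17.2% of all genes, with a median log2 fold change of -0.33. With epithelial scaling 1 was higher and 13 lower (median -1.73), beside a median of -1.31 and 10634 of 16710 lower for all genes. Without p57KO 2 or p57WT 3 the count of growth carriers lower was 3. Slc2a1, the glucose carrier of many growing cells (chromosome 4, 119108711 to 119137983, plus strand), was at 72.5, 201, 105, 81.7 and 65.3 CPM in p57KO 1 to 5 and at 38.6, 42.5, 31.9, 32.8 and 21.3 CPM in p57WT 1 to 5. The groups did not overlap (log2 fold change 1.65, SE of 0.33, edgeR adjusted p = 0.00247). Scaled to epithelial markers it was 0.26 and did not pass (adjusted p = 0.483). Within 607 it was 1.83 and missed the threshold (edgeR adjusted p = 0.113).

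Slc2a4, the insulin-responsive glucose carrier of muscle and fat, was at 9.29, 16, 55.6, 35.0 and 42.1 CPM in p57KO 1 to 5 and at 101, 319, 137, 132 and 105 CPM in p57WT 1 to 5. All p57KO libraries were below all p57WT libraries (log2 fold change -2.33, SE of 0.48, edgeR adjusted p = 0.00302), also within 607 (-2.99, edgeR adjusted p = 0.0120). The lowest pair, p57KO 1 and p57KO 2, were also the lowest in summed smooth muscle markers, with 5747 and 8937 CPM against 27226 to 38881 CPM in p57KO 3 to 5. They were lowest in summed fibroblast markers too, with 149 and 258 CPM against 813 to 1345 CPM, and both are numbered 607. The part of these cells or of the label number in the result was not tested. Slc2a10, another glucose carrier family member, was lower too (log2 fold change -1.56, edgeR adjusted p = 0.00951), while Slc2a8, an intracellular member, was at -0.05 (edgeR adjusted p = 0.912). Slc2a9, a urate carrier, rose (1.54, edgeR adjusted p = 0.0198), with p57KO 1 highest at 14.1 CPM.

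Some amino acid carriers of growing cells were lower. Slc7a5, the light subunit for large neutral amino acids that pairs with Slc3a2, was at 20.3, 10.3, 14.1, 11.3 and 26.1 CPM in p57KO 1 to 5 and at 35.7, 25.1, 27.8, 38.5 and 35.0 CPM in p57WT 1 to 5. The groups overlapped only through p57KO 5 and p57WT 2 (log2 fold change -0.98, SE of 0.29, edgeR adjusted p = 0.0178). Slc7a1, a cationic amino acid carrier, was at -0.91 (edgeR adjusted p = 0.0307) and lost the call without any 1 of p57KO 2, p57KO 3, p57KO 4, p57WT 1, p57WT 3, p57WT 4 or p57WT 5 (edgeR adjusted p from 0.0548 to 0.0772).

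Slc38a2, a sodium-coupled carrier of neutral amino acids, was at 324, 182, 134, 110 and 159 CPM in p57KO 1 to 5 and at 277, 279, 293, 287 and 263 CPM in p57WT 1 to 5. Only p57KO 1 was above the p57WT range, and the gene did not pass (log2 fold change -0.62, edgeR adjusted p = 0.0942), but without p57KO 1 it was called lower (-0.93, edgeR adjusted p = 0.00460). Slc38a4, an imprinted amino acid carrier gene expressed from the paternal copy, was lower (-1.60, edgeR adjusted p = 0.0339) and lost the call without any 1 of p57KO 2, p57KO 5, p57WT 2, p57WT 3 or p57WT 5 (edgeR adjusted p from 0.0506 to 0.0956).

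Slc38a5, a glutamine and neutral amino acid carrier, rose in p57KO, with 1.72, 2.92, 19.6, 7.63 and 6.62 CPM in p57KO 1 to 5 and a range of 0.553 to 2.02 CPM across p57WT (log2 fold change 2.93, SE of 0.66, edgeR adjusted p = 0.00509). Without p57KO 3 it was 2.23. Slc38a11, an amino acid carrier family member of unsettled substrate, had the largest increase of its family, with 4.13, 8.39, 17.9, 12.5 and 6.09 CPM in p57KO 1 to 5, against 1.25, 0.909, 0.121, 0.654 and 1.19 CPM in p57WT 1 to 5. The groups did not overlap (log2 fold change 3.55, SE of 0.57, edgeR adjusted p = 0.000873), and with epithelial scaling it remained called (2.23, adjusted p = 0.00554).

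Slc7a11, the cystine-glutamate exchanger whose promoter is printed above, was at 33.4, 228, 5.92, 4.07 and 2.70 CPM in p57KO 1 to 5 and at 2.85, 4.82, 3.63, 1.96 and 3.91 CPM in p57WT 1 to 5. Only p57KO 1 and p57KO 2, both numbered 607, stood above the rest. The log2 fold change was 3.98 (SE of 1.09, edgeR adjusted p = 0.0135), but 1.68 without p57KO 2 (edgeR adjusted p = 0.0616), and 0.36 when p57KO 1 was left out as well (edgeR adjusted p = 0.488). p57KO 2 also had the highest sums of myeloid, erythroid and epithelial markers, at 8496, 1308 and 17986 CPM. The myeloid sum of p57KO 3, at 1039 CPM, was near that of p57KO 1, at 1129 CPM, but the make-up of the sums differed. S100a8, Itgam, Fcer1g, Tyrobp and Cd68 were higher in p57KO 1, with S100a8 at 580 CPM against 31.9 CPM in p57KO 3. Lyz2, Csf1r, Ptprc and Csf3r were higher in p57KO 3, with Lyz2 at 821 CPM against 221 CPM in p57KO 1. Slc16a3, the lactate exporter, was at 72.7 CPM in p57KO 2, at 9.20 to 16.1 CPM in the other p57KO libraries and at 3.63 to 8.99 CPM in p57WT (log2 fold change 2.08, edgeR adjusted p = 0.0135). Without p57KO 2 it was 1.11 and still passed (edgeR adjusted p = 0.0326). Slc15a3, a lysosomal peptide and histidine carrier of immune cells, was not tested, with 25.5, 36.8, 1.02, 0.115 and 0.261 CPM in p57KO 1 to 5 and at most 1.54 CPM in p57WT. The part of myeloid or other cells in these 3 genes was not tested.

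**Figure D3:**
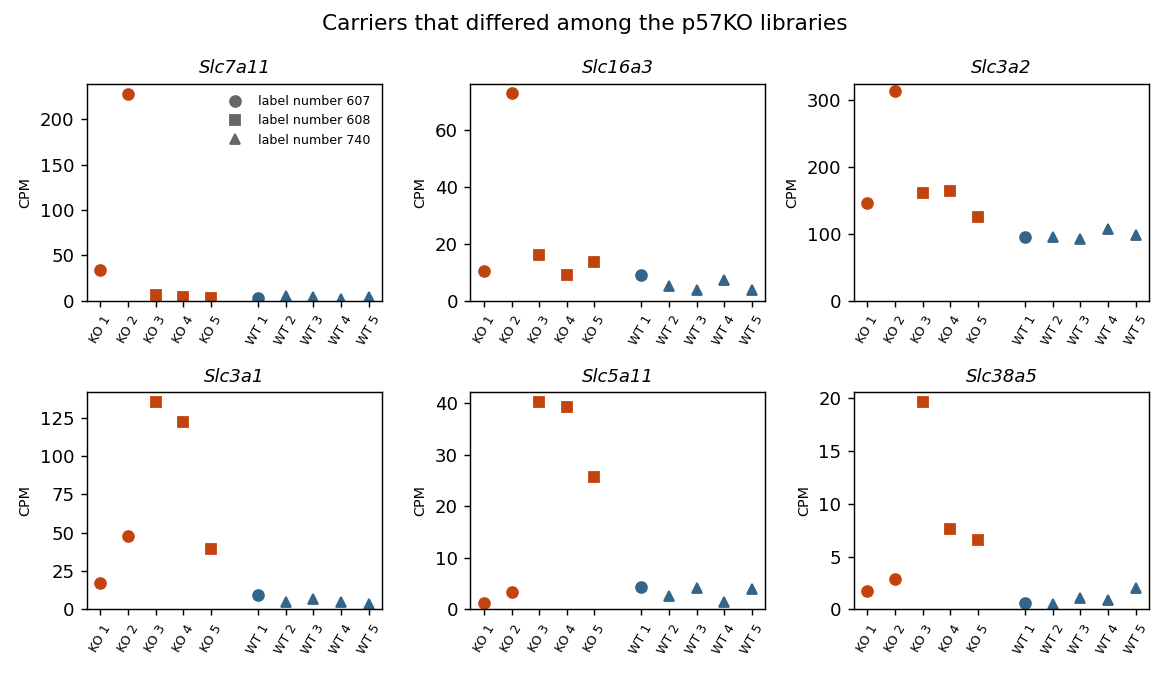
CPM (linear axis) of 6 carriers in each library, with p57KO 1 to 5 left of p57WT 1 to 5 and the label number as the symbol. Slc7a11 is high in p57KO 1 and p57KO 2, Slc16a3 and Slc3a2 are highest in p57KO 2, and Slc5a11 is high in the 3 p57KO libraries numbered 608.

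Of the other Slc16a genes, Slc16a6, Slc16a13, Slc16a11 and Slc16a12 were also higher, with log2 fold changes of 1.35, 1.13, 1.5 and 0.81 (edgeR adjusted p = 0.00498, 0.0137, 0.0275 and 0.0359). Slc16a11 lost the call without any 1 of p57KO 2, p57WT 3 or p57WT 4 (edgeR adjusted p from 0.0555 to 0.0783) and with the replicate block (edgeR adjusted p = 0.0501). Slc16a12 lost it without any 1 of p57KO 1, p57KO 4 or p57WT 2 to 5 (edgeR adjusted p from 0.0582 to 0.0900). Slc16a1, the main lactate and butyrate carrier of the gut lining, was at 77.2, 76.6, 101, 106 and 80.4 CPM in p57KO 1 to 5 and at 60.6, 75.1, 64.7, 52.1 and 55.5 CPM in p57WT 1 to 5. The groups did not overlap, but it missed the threshold (log2 fold change 0.52, edgeR adjusted p = 0.0544), and it passed without any 1 of p57KO 1, p57KO 2 or p57WT 2 (edgeR adjusted p from 0.0348 to 0.0464). Slc16a7, a pyruvate and lactate carrier, was at -1.44 (edgeR adjusted p = 0.0290) and lost the call without any 1 of p57KO 2, p57WT 2 or p57WT 3 (edgeR adjusted p from 0.0636 to 0.0678).

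Of 17 neurotransmitter and osmolyte carriers in the table, 8 were tested, 1 was higher (12.5%) and 2 were lower (25%). Of all genes tested 19.3% were higher and 17.2% lower, so with 8 genes these counts are near those shares. Slc6a4, the serotonin carrier, which enterocytes use to clear serotonin released by endocrine cells, was at 39.1, 49.3, 53.1, 63.2 and 48.6 CPM in p57KO 1 to 5 and at 23.2, 14.4, 21.2, 24.9 and 9.25 CPM in p57WT 1 to 5. All p57KO libraries were higher (log2 fold change 1.45, SE of 0.28, edgeR adjusted p = 0.00222), and with epithelial scaling it was 0.18 (adjusted p = 0.617). Slc6a17, a carrier of neutral amino acids into synaptic vesicles, was at 0.0860, 1.27, 4.62, 1.42 and 5.05 CPM in p57KO 1 to 5 and at 17.9, 16.6, 21.8, 18.8 and 26.7 CPM in p57WT 1 to 5. Every p57KO library was far below the p57WT range (log2 fold change -3.03, SE of 0.64, edgeR adjusted p = 0.00361), also within 607 (-4.57, edgeR adjusted p = 0.0120). Summed neuron and glia markers were at 32.5 to 64.9 CPM in p57KO and 19.0 to 59.8 CPM in p57WT, with 1 of 7 tested markers higher and 2 lower.

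Slc6a8, the creatine carrier, was lower in p57KO (log2 fold change -0.92, edgeR adjusted p = 0.0169), but leaving out p57KO 1 and p57KO 2 gave -0.62, which missed the threshold (edgeR adjusted p = 0.0635). Slc6a6, the taurine carrier, was at 159 to 430 CPM in p57KO and 215 to 277 CPM in p57WT and did not pass (log2 fold change 0.16, edgeR adjusted p = 0.680). Of 6 tested lysosomal and intracellular carriers, Slc36a4 was lower (-1.06, edgeR adjusted p = 0.0101), and the others, which include Slc15a4 at 0.11 (edgeR adjusted p = 0.780), lay between -0.13 and 0.11.

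Outside these roles, Slc15a2, a peptide carrier best known from the kidney, rose (log2 fold change 1.79, edgeR adjusted p = 0.0121), as did Slc7a4 (1.33, edgeR adjusted p = 0.00435). Slc5a2, the glucose carrier of the kidney tubule, was at 0.282 ± 0.224 CPM across p57KO and 1.59 ± 0.273 CPM across p57WT (log2 fold change -2.48, edgeR adjusted p = 0.00715), close to the level of 3 counts. Exons of the opposite-strand gene BC017158 overlap 597 of its 2897 exonic bases.

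Per kilobase of exon, the order of carriers differed between the genotypes. In p57KO the highest were Slc5a1 at 66.1 ± 18.9 CPM per kilobase and Slc7a9 at 66.1 ± 27.4, then Slc3a2 at 51.7 ± 21.3, Slc3a1 at 31.9 ± 23.2, Slc6a6 at 30.7 ± 13.4 and Slc2a1 at 30.0 ± 15.9 (SD, n = 5 each). Neighbours in this order lay within their spread of each other. In p57WT the highest were Slc2a4 at 45.7 ± 26.1 CPM per kilobase, Slc38a2 at 31.7 ± 1.29, Slc3a2 at 27.8 ± 1.54 and Slc6a6 at 27.4 ± 3.13, and below these, beyond the spread, Slc16a1 at 13.9 ± 2.03. Among the 89 carriers Slc5a1 ranked 1 in p57KO and 9 in p57WT, Slc3a1 ranked 4 in p57KO and 31 in p57WT, and Slc2a4 ranked 14 in p57KO and 1 in p57WT.

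As a share of all carrier counts in a library, which does not depend on library scaling, brush border carriers made up 20.2% to 33.5% in p57KO and 6.83% to 11.5% in p57WT. Growth and housekeeping carriers made up 24.4% to 34.1% in p57KO and 43.7% to 51.5% in p57WT. Neither pair of ranges overlapped. These are not separate results, since a larger share of 1 list leaves less for the others. In CPM the growth sums overlapped, at 630 to 1043 in p57KO and 893 to 1144 in p57WT. The growth list includes Slc2a4, a carrier of muscle and fat. Basolateral carriers were at 13.1% to 20.7% in p57KO and 13.1% to 16.8% in p57WT, and neurotransmitter and osmolyte carriers at 11.0% to 17.8% in p57KO and 15.8% to 20.8% in p57WT.

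**Figure D4:**
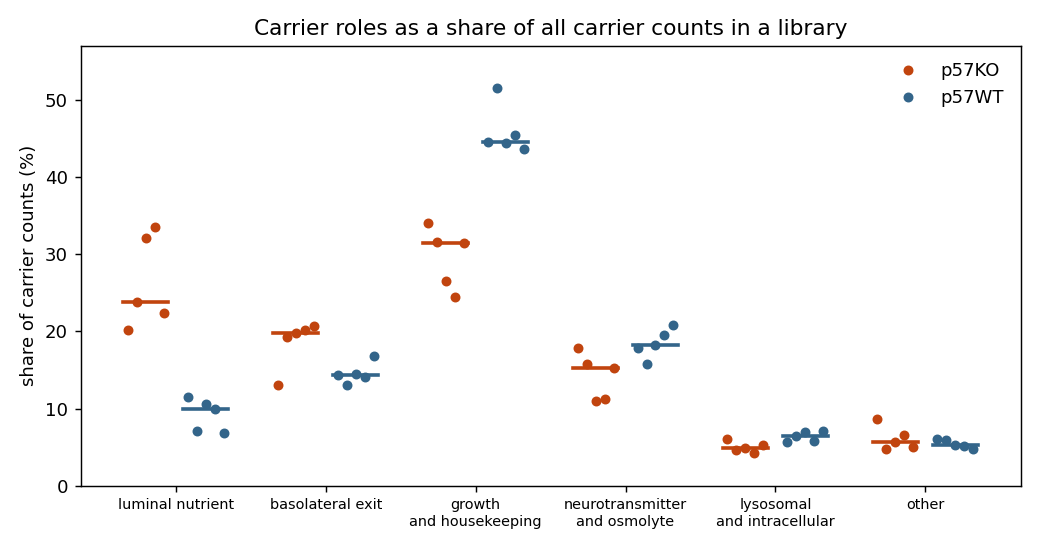
Share of all carrier counts in each library (percent) for 5 role lists and the carriers on none of them. Points are libraries, p57KO left and p57WT right, and lines are medians. The median share of brush border carriers was 23.8% in p57KO and 10% in p57WT, and that of growth carriers 31.4% in p57KO and 44.5% in p57WT.

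Ratios between 2 carrier genes, per kilobase and within a library, do not depend on scaling between libraries. The 2 genes of a pair do not always share a substrate, and some encode subunits that join each other. Of 12 ratios, 5 did not overlap between the genotypes. The pairs were picked with earlier results of these data known, and no share over other pairs was computed. Where a pair holds a gene called higher and a gene called lower, its ratio restates those calls. Among the 5 is Slc6a20a over Slc6a20b, and Slc6a20b was too low to be tested. The ratio of Slc7a9 to Slc7a5 was 5.16, 28.0, 22.2, 30.5 and 6.63 in p57KO 1 to 5, against 1.41, 1.31, 2.45, 1.5 and 0.521 in p57WT 1 to 5. The ratio of the heavy subunits, Slc3a1 to Slc3a2, was 0.182 to 1.30 in p57KO and 0.0559 to 0.149 in p57WT, so that Slc3a1 was above Slc3a2 in p57KO 3 and p57KO 4 only. The ratio of Slc7a5 to its partner Slc3a2 was 0.0314 to 0.200 in p57KO and 0.250 to 0.354 in p57WT.

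Among glucose carriers, the ratio of Slc5a1 to Slc2a1 had a median of 2.6 in p57KO (1.55 to 2.82) and 1.09 in p57WT (0.794 to 1.60), with p57KO 2 just inside the p57WT range. The ratio of Slc2a3, a glucose carrier of neurons and blood cells, to Slc2a1 had a median of 0.00977 in p57KO and 0.0504 in p57WT and did not overlap. Slc2a3 itself did not pass (log2 fold change -1.03, edgeR adjusted p = 0.0723), but was called lower without p57WT 4 (-1.24, edgeR adjusted p = 0.0364).

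**Figure D5:**
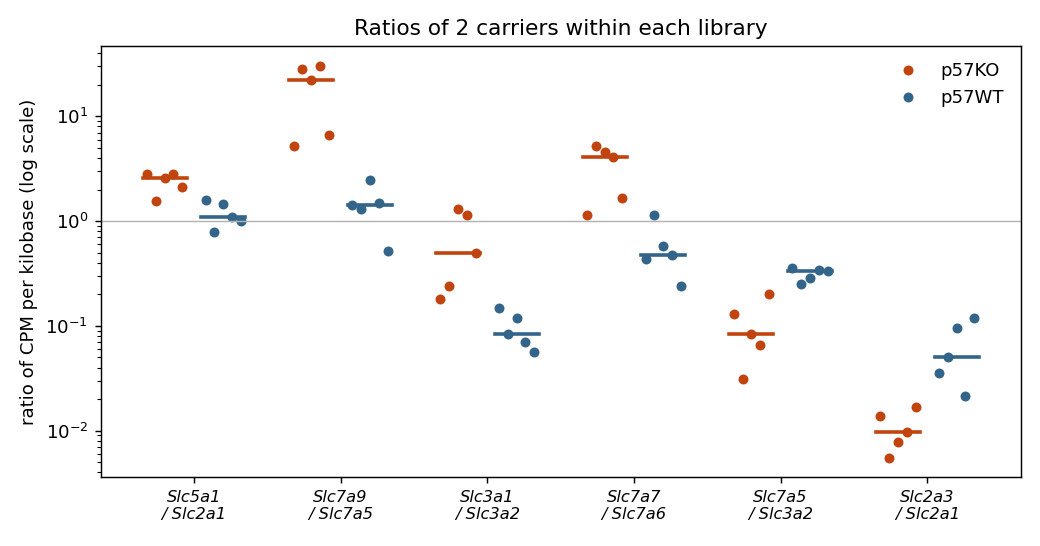
Ratio of CPM per kilobase (log axis) between 2 carriers within each library, for 6 of 12 pairs. Points are libraries, p57KO left and p57WT right, lines are medians, and the grey line marks a ratio of 1. Slc7a9 over Slc7a5 and Slc3a1 over Slc3a2 are higher in all p57KO libraries, and Slc7a5 over Slc3a2 is lower in all of them.

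Of 16 tested genes for proteins that anchor or regulate the carriers, 8 were higher in p57KO and 1 was lower (median log2 fold change 0.92). These are 50% and 6.25%, beside 19.3% and 17.2% of all genes. Cltrn, the collectrin gene, whose product brings amino acid carriers to the surface, was at 39.5 ± 19.3 CPM across p57KO and 0.703 ± 0.523 CPM across p57WT (log2 fold change 5.86, edgeR adjusted p = 0.000115). Slc9a3r1, a scaffold gene of the brush border, rose by 1.74 (edgeR adjusted p = 0.000697), and Nedd4l, a ubiquitin ligase gene that removes carriers from the surface, fell by 0.72 (edgeR adjusted p = 0.0200). Scaled to epithelial markers, 3 of this list were higher and 4 lower (median -0.40, beside -1.31 for all genes).

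Of 7 tested genes of fructose use and glucose output, 5 were higher (71.4%) and 0 lower (median 1.82), beside 19.3% and 17.2% of all genes. Slc37a4, a glucose phosphate carrier gene of the endoplasmic reticulum, and Khk, the fructokinase gene, had log2 fold changes of 2.42 and 1.42 (edgeR adjusted p = 0.000711 and 0.00210). Of 16 tested genes of the amino acid response, which cells turn on when amino acids run short, 6 were higher and 0 lower (median 0.78). The share higher was 37.5%, beside 19.3% of all genes. The count of those higher was 9 without p57KO 1 and 3 without p57WT 3. It was 4 without any 1 of p57KO 3, p57WT 1, p57WT 4 or p57WT 5. It was 4 with limma voom, 3 with the replicate block and 1 with the ribosomal RNA class as a term, and within 607 it was 0 in edgeR. Asns, the asparagine synthetase gene, rose by 1.24 (edgeR adjusted p = 0.00144), Atf3 by 1.19 (edgeR adjusted p = 0.0103) and Ddit3 by 0.93 (edgeR adjusted p = 0.0185). Atf4, which encodes the factor that drives this response, was at 0.10 (edgeR adjusted p = 0.796). With epithelial scaling 1 fructose and glucose gene was higher, and 0 amino acid response genes were higher and 7 lower. The medians were 0.43 and -0.60, beside -1.31 for all genes, of which 10634 of 16710 were lower.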

How the data were processed

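Counts of reads per gene, not normalized, were deposited by the authors for 10 libraries, per the file headers and the values. The authors' comparison was deposited as log2 fold changes with adjusted p-values, per the file headers. Upstream, DESeq2 1.22.2, HTSeq 1.0, Cufflinks 2.2.1, STAR 2.6.1d, Trim Galore and FastQC are listed with mm10 (GRCm38) in the submitters' processing notes, without roles. No strand setting is given in the sources used here, and exons of 25 members overlap another gene. Gene coordinates and exon lengths are from GENCODE M21 (GRCm38), which matched 20558 of 20579 identifiers.

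Genotypes were compared with edgeR 4.0.16 (quasi-likelihood test) in R 4.3.3, with TMM scaling and the tool's expression filter, which removed 3869 genes. P-values were adjusted over the 16710 genes left. All adjusted p-values are from this fit unless another setting is named. They are then from edgeR under that setting, or from limma voom or DESeq2 where that tool is named. SEs were taken from the test statistic. Alternatives were DESeq2 1.42.0, limma 3.58.1 (voom), scaling to epithelial markers, no filter, terms for replicate number, label number (607, 608 or 740) and ribosomal RNA class (above or below 1% of counts on 3 features), and leaving out libraries. The test scripts were tested on simulated data. Libraries were taken as separate animals, since the design speaks of separate intestines. If they were not, p-values measure only the spread between these samples. Same-numbered libraries were not treated as pairs. Intervals of counting were not used, and floors of 3 counts cover counting error only.

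Members and gene lists were chosen with earlier results of these data known. Named carriers were the 3 markers Slc5a1, Slc15a1 and Slc2a1, up to 3 called members with the smallest p in each family and direction with at least 1 CPM, the most abundant uncalled member of each family, and all called members of the role lists. Other lists name up to 3 genes per direction. Other carriers were named after their values were seen. An Slc6a gene left out by the rule, and some genes picked by it, are not reported here.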

Additional observations from a re-analysis of the deposited data

Results flagged for a closer look

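In a group of 5 libraries, a library was singled out when its gap to the nearest other one was more than 0.71 of the range of the group. Of 90 groups examined (45 carriers in 2 genotypes), 7 had such a library. Chance alone gives about 1 in 20 for normally distributed values. The CPM were not put on a log scale and all 7 lay at the high end, so this rate may not hold here. In p57KO 2, Slc7a11 was at 228 CPM, with 2.70 to 33.4 CPM in the other p57KO libraries. In the same library Slc3a2 was at 314 CPM, with 125 to 165 CPM in the others, and Slc16a3 at 72.7 CPM, with 9.20 to 16.1 CPM in the others. In p57KO 1, Slc2a9 was at 14.1 CPM, with 3.19 to 5.83 CPM in the other p57KO libraries. Among p57WT libraries, Slc2a4 was at 319 CPM in p57WT 2 and 101 to 137 CPM in the others, Slc6a14 at 16.5 CPM in p57WT 3 and 1.07 to 4.62 CPM in the others, and Slc43a3 at 92.1 CPM in p57WT 5 and 25.3 to 42.4 CPM in the others. p57WT 2 also had the highest smooth muscle marker sum, at 118828 CPM.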

How the results depend on the processing

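The counts of 6107 genes called, 27 members higher and 11 lower stayed within 1.5 times with DESeq2, limma voom, no filter, the replicate block, p57KO 1 and p57KO 2 left out together, and each library left out (for single libraries 4763 to 7141 genes, 25 to 30 members higher and 9 to 14 lower). With epithelial scaling 11071 genes were called, with 6 members higher and 39 lower. With the label number as a term 1009 genes, 1 member higher and 4 lower were called, where only the 3 libraries of 607 bear on genotype. With the ribosomal RNA class as a term the counts were 2959, 15 and 6, and the cause was not tested. The higher share of all calls was 52.8% as reported, 3.95%, 18.1% and 40.8% under these 3 settings. Cdkn1c was called throughout (-9.72 to -7.28, adjusted p at most 0.00222 under each setting run). The 20 carriers that were not tested were removed by the expression filter, which asks for enough counts in several libraries, so depth is not the only limit. Slc15a3 was removed with 1202 counts in p57KO, of which 297 and 870 fell in p57KO 1 and p57KO 2.

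The replicate block gave 5804 genes, 25 members higher and 12 lower. Deviations of same-numbered libraries correlated at 0.204, 0.05, -0.134, -0.115 and 0.147, so the numbers do not pair the samples.

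With epithelial scaling the log2 fold change turned to -1.34 for Slc15a4, -0.85 for Slc16a1, -0.19 for Slc16a10, -0.29 for Slc16a13, -0.08 for Slc16a6, -1.36 for Slc1a5, -0.55 for Slc3a2, -0.65 for Slc5a6, -0.00024 for Slc5a8, -1.32 for Slc6a6, -0.07 for Slc7a4 and -0.57 for Slc7a8. Within 607 it turned to 0.54 for Slc2a8, -0.89 for Slc5a11 and -0.30 for Slc7a8. It turned to 0.01 for Slc36a1 with the ribosomal RNA class as a term and to 0.01 for Slc2a8 with no filter. Without p57KO 1 and p57KO 2 together it was -0.10 for Slc15a4, -0.07 for Slc1a5, 0.04 for Slc2a8 and -0.28 for Slc6a6. With each library left out it ranged from -0.03 to 0.23 for Slc15a4, -0.03 to 0.18 for Slc1a5, -0.17 to 0.17 for Slc2a8 and -0.10 to 0.31 for Slc6a6.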

Other observations

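Of the 20 members removed by the filter, 5 were called higher and 2 lower in edgeR when no filter was used. Of all 20579 genes, 17.2% were then called higher and 14.3% lower. Those higher were Slc15a3 (log2 fold change 4.72), Slc2a7 (3.51), Slc7a15 (3.47), Slc5a4b (3.03) and Slc38a3 (2.5), and those lower were Slc5a7 (-3.28) and Slc16a9 (-2.79). Slc5a7, the choline carrier of cholinergic neurons, had 9 counts in p57KO and 58 in p57WT, of which none fell in p57WT 1. Slc38a3, a glutamine carrier, was at 0.774 and 0.762 CPM in p57KO 1 and p57KO 2, at 4.45, 5.45 and 3.66 CPM in p57KO 3 to 5, and at 0.119 to 0.911 CPM in p57WT. The higher values in the libraries numbered 608 split the p57KO libraries as Slc5a11 and Slc38a5 did.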
